A study of Mus musculus with 4 samples.

Results

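The genes of serine synthesis and of folate one-carbon metabolism were followed in CD11b+Ly6g+ myeloid-derived suppressor cells (MDSCs) sorted from the lungs of C57BL/6 mice. The 8 genes were taken by their symbols from a table of 54532 genes: Phgdh, Psat1 and Psph of serine synthesis, Shmt1 and Shmt2 of serine and glycine interconversion, and Mthfd1, Mthfd2 and Mthfd1l of the folate cycle. The set was chosen by the measured level of Phgdh, which is low in the sFD17 library and high in the FR17 library, so those values are given as a description and carry no test. All 8 genes had at least 10 counts in every one of the 4 libraries.

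Every mouse, 6 to 8 weeks old, carried the pre-metastatic niche (PMN) model. It received 300 μl of MCM, the medium conditioned by mouse B16F10 melanoma cells, into the peritoneum on 10 days in a row, and on day 7 an injection of B16F10 cells into the tail vein. The control group (Ctrl) had the model and no peptide, and the other mice had TP5, sFD17 or FR17 under the skin at 40 μM/kg each day from day 3. Lungs were taken on day 10, and the cells of 10 to 12 mice were pooled into 1 library per group. TP5 is free thymopentin, an immunomodulatory pentapeptide. In FR17 it is joined by a linker that MMP2 cuts to a peptide backbone that then self-assembles, and in sFD17 a scrambled pentapeptide takes the place of TP5. All groups carried the model, so no healthy lung is part of these values, and a difference between libraries has no replicate check.

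Serine is made from the glycolytic intermediate 3-phosphoglycerate. PHGDH oxidises it in the first step, PSAT1 adds the amino group and PSPH removes the phosphate. The SHMT enzymes, SHMT1 in the cytosol and SHMT2 in mitochondria, then turn serine into glycine and pass a carbon unit to tetrahydrofolate. MTHFD2 and MTHFD1L carry that unit to formate in mitochondria, and MTHFD1 takes it up in the cytosol for purine, thymidylate and methionine synthesis. Dividing cells and activated lymphocytes use the pathway heavily, and many of its genes are known targets of the transcription factor ATF4.

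The libraries held 15543071 to 19638228 counts on 21835 to 23033 genes. Levels are given as CPM, counts scaled to a common library size with TMM factors, which ran from 0.849 in sFD17 to 1.17 in FR17. By library size alone, the median log2 fold change of all genes against Ctrl moved to −0.23 in sFD17 and 0.26 in FR17. A prior count of 2 enters each log2 fold change, and a fold is the plain ratio of levels. Brackets hold 95% intervals of the plain levels and ratios, which cover counting error only. Itgam, which encodes CD11b, stood at 302 to 433 CPM and Ly6g at 73.1 to 111 CPM, so both sorting markers were present in every library. The libraries also held RNA of other cells. The 14 macrophage markers, each with counts in every library, summed to 10014 CPM in Ctrl, 7611 in TP5, 3804 in sFD17 and 12446 in FR17, against 32676 to 48912 CPM for the 16 neutrophil markers. The 8 NK cell markers summed to 113 CPM in FR17 and to 26.3 to 37.7 CPM elsewhere. The 10 T cell markers summed to 69.0 CPM in Ctrl, 66.8 in TP5, 44.3 in sFD17 and 117 in FR17. In pooled RNA of this kind, fewer cells of a type and less RNA per cell cannot be told apart.

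Promoter sequences are shown for 4 genes whose levels, given after them, follow different orders: Phgdh and Shmt2, both highest in FR17, and Psat1 and Mthfd2, both highest in TP5. Each is the part of the 250 bases before the RefSeq transcript start (GRCm38.p6, minus strand) that lies outside annotated exons, at chr3:98339991-98340219 for Phgdh, chr10:127522445-127522694 for Shmt2, chr19:15925060-15925309 for Psat1 and chr6:83317607-83317854 for Mthfd2. Capitals mark the CCAAT box (CCAAT, on the other strand ATTGG), bound by NF-Y, and in Phgdh also the antioxidant response element of NRF2 (TGACNNNGC, on the other strand GCNNNGTCA). Shmt2 holds no match, and a further CCAAT of Phgdh reaches into the bases left out.
Phgdh: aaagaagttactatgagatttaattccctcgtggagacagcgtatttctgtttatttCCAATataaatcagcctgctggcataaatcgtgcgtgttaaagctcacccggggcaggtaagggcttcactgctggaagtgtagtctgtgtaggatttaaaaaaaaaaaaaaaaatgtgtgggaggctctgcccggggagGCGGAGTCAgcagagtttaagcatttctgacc
Shmt2: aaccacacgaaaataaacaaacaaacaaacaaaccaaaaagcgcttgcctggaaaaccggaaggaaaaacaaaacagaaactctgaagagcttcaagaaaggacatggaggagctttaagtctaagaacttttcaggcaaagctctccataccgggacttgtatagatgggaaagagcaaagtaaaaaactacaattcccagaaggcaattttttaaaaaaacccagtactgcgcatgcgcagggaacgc
Psat1: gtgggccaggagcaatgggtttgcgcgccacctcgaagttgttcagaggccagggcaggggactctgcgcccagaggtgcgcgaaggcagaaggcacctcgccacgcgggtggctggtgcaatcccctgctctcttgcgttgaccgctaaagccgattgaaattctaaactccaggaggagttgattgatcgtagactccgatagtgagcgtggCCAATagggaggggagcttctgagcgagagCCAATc
Mthfd2: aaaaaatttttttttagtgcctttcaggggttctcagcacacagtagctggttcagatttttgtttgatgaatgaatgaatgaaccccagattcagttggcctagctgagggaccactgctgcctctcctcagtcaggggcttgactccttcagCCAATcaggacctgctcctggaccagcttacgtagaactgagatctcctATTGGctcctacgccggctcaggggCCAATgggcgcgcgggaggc
Promoters of all 8 genes were found in RefSeq, in 9 windows, 2 of them for Psat1, whose more upstream start is the one shown. The full 250 bases were searched on both strands. A CCAAT box lay in 6 of the 9 windows, those of Phgdh, Psph, Shmt1, Mthfd1 and Mthfd2 and the one shown of Psat1, whose other window held none, and in 33.8% of all 32851 promoter windows of that length. The letters of the antioxidant response element lay in 1 of the 9, that of Phgdh, and in 10.2% of all windows. The response element of ATF4 with C/EBP proteins (TGATGNAA, on the other strand TTNCATCA) lay in 0 of the 9 and in 3.45% of all windows, and the E-box CACGTG, which Myc can bind, in 0 of the 9 and in 6.02%. A match describes letters and not binding, and the absence of one says only that these letters are not in this window.

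Phgdh, the gene of the first and committed step, differed most between the libraries. It lies on chromosome 3 from 98313170 to 98339990 on the minus strand of GRCm38 (ENSMUSG00000053398). It had 263 counts in Ctrl, 226 in TP5, 44 in sFD17 and 755 in FR17. On the scaled level this was 15.6 CPM in Ctrl (13.7 to 17.6), 12.9 in TP5 (11.3 to 14.7), 3.33 in sFD17 (2.42 to 4.48) and 32.9 in FR17 (30.6 to 35.3). Their order was FR17, Ctrl, TP5, sFD17, and each neighbouring pair differed beyond its counting interval, Ctrl and TP5 only just. Compared with Ctrl, the log2 fold change of Phgdh was −2.19 in sFD17 (−2.72 to −1.76), 1.07 in FR17 (0.87 to 1.29) and −0.27 in TP5 (−0.54 to −0.01). Phgdh was thus 4.67-fold lower in sFD17 and 2.11-fold higher in FR17 than in Ctrl, and 9.87-fold higher in FR17 than in sFD17. Of all genes, 152 of the 16369 tested genes had a lower value than Phgdh in sFD17 against Ctrl, and 32 had a higher value in FR17 against sFD17. The pseudogene Phgdh-ps1 had 6 counts in Ctrl, 0 in TP5, 0 in sFD17 and 3 in FR17, few beside those of Phgdh.

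**Figure D1:**
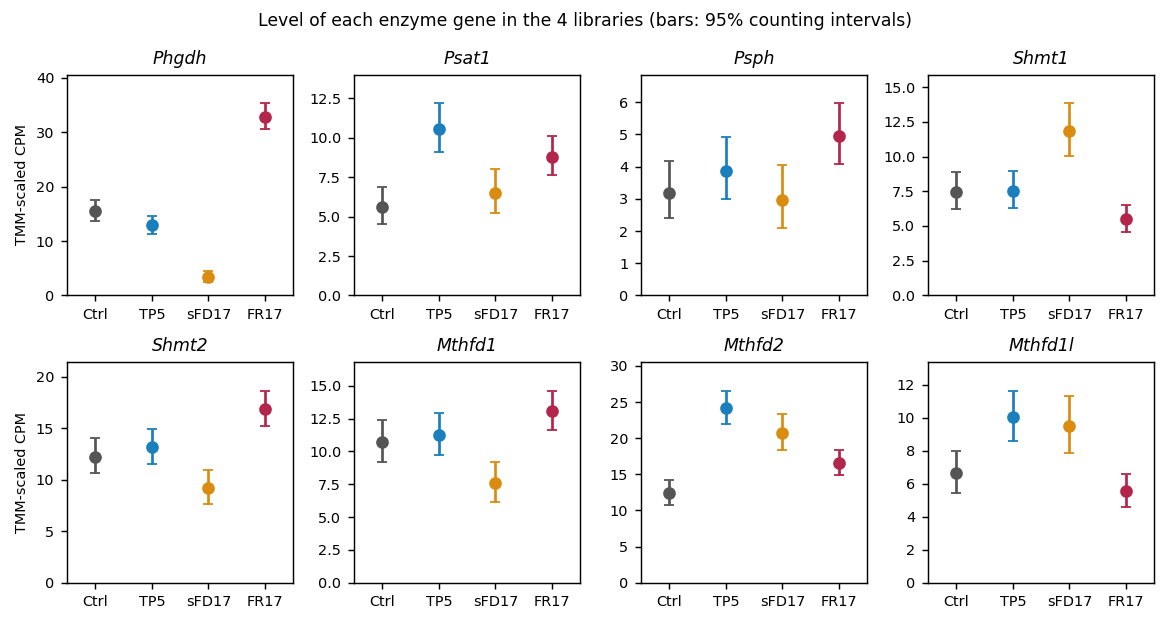
TMM-scaled CPM of each of the 8 genes (vertical axes, from 0) in the Ctrl, TP5, sFD17 and FR17 libraries, 1 library per group, with bars for 95% counting intervals. Phgdh ranged from 3.33 CPM in sFD17 to 32.9 CPM in FR17, while Mthfd2, Psat1 and Mthfd1l were highest in TP5 and Shmt1 in sFD17.

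The other serine synthesis genes were not separated from Ctrl by counting error in sFD17. Psat1 (ENSMUSG00000024640, chromosome 19 from 15904678 to 15947337, minus strand) had 95 counts in Ctrl, 185 in TP5, 86 in sFD17 and 202 in FR17. Its scaled level was 5.62 CPM in Ctrl (4.55 to 6.88), 10.5 in TP5 (9.08 to 12.2), 6.52 in sFD17 (5.21 to 8.05) and 8.80 in FR17 (7.63 to 10.1). TP5 and FR17 were the high libraries, not separated from each other by counting error, and sFD17 and Ctrl were the low ones, likewise not separated. The log2 fold change of Psat1 against Ctrl was 0.89 in TP5 (0.54 to 1.28), 0.64 in FR17 (0.29 to 1.01) and 0.21 in sFD17 (−0.23 to 0.65), all under a 2-fold difference, and by library size alone the value in sFD17 turned to −0.003. Psph (ENSMUSG00000029446, chromosome 5 from 129765558 to 129787449, minus strand) was the lowest of the 8 genes per length in every library. In FR17 counting error did not separate it from Mthfd1l. It had 54 counts in Ctrl, 68 in TP5, 39 in sFD17 and 114 in FR17, or 3.20, 3.88, 2.96 and 4.97 CPM. No neighbouring pair of libraries in this order of levels was separated by counting error, but FR17 exceeded Ctrl, with a log2 fold change of 0.62 (0.16 to 1.13). Of the 4329 exon bases of Psph, 452 also lie in exons of Cct6a on the opposite strand, a gene with 351 to 1095 counts. The library kit keeps the strand, but whether the counting used it is not given in the sources used here.

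The ratio of serine synthesis genes within a library does not depend on the scaling. Per gene length, Phgdh had 4.74 times the counts of Psat1 in Ctrl (3.73 to 6.06), 2.09 times in TP5 (1.71 to 2.55), 0.875 times in sFD17 (0.594 to 1.27) and 6.40 times in FR17 (5.47 to 7.51). Phgdh was therefore above Psat1 in 3 libraries and not separated from it in sFD17. Against Psph the ratio was 8.48 in Ctrl (6.31 to 11.6), 5.79 in TP5 (4.40 to 7.71), 1.96 in sFD17 (1.25 to 3.10) and 11.5 in FR17 (9.46 to 14.2). The ratio of Psat1 to Psph stayed between 1.79 and 2.77, with overlapping intervals in all 4 libraries.

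The SHMT genes had opposite orders in the libraries of the assembling peptides. Shmt2, the mitochondrial form (ENSMUSG00000025403, chromosome 10 from 127517123 to 127522444, minus strand), had 207 counts in Ctrl, 231 in TP5, 121 in sFD17 and 388 in FR17. With 12.3 CPM in Ctrl, 13.2 in TP5, 9.17 in sFD17 and 16.9 in FR17, it was highest in FR17 and lowest in sFD17, the order of extremes seen for Phgdh. Its log2 fold change against Ctrl was −0.41 in sFD17 (−0.75 to −0.09) and 0.46 in FR17 (0.22 to 0.71). Relative to the macrophage markers these values were 0.98 and 0.15. Shmt1, the cytosolic form (ENSMUSG00000020534, chromosome 11 from 60788104 to 60811718, minus strand), had 126 counts in Ctrl, 132 in TP5, 156 in sFD17 and 126 in FR17. Scaled to 7.46, 7.53, 11.8 and 5.49 CPM in that order, it was highest in sFD17 and lowest in FR17. Shmt1 was 2.15-fold lower in FR17 than in sFD17, a log2 fold change of −1.09 (−1.46 to −0.76). Without a filter on low counts it was −0.98, and by library size alone −0.64, under 2-fold in both cases. Relative to the neutrophil markers, Shmt1 in FR17 was 0.695 times that in sFD17, also under 2-fold. Relative to the macrophage markers it was 0.142 times. The ratio of Shmt2 to Shmt1 per length was 2.05 in Ctrl (1.64 to 2.58), 2.19 in TP5 (1.76 to 2.73), 0.969 in sFD17 (0.758 to 1.24) and 3.85 in FR17 (3.14 to 4.74). The mitochondrial form thus prevailed in 3 libraries, most in FR17, and the counts did not separate the forms in sFD17. Exons of Smcr8, on the opposite strand, share 184 of the 3883 exon bases of Shmt1, and Smcr8 too had its most counts in sFD17, 1161 against 843 in Ctrl.

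**Figure D2:**
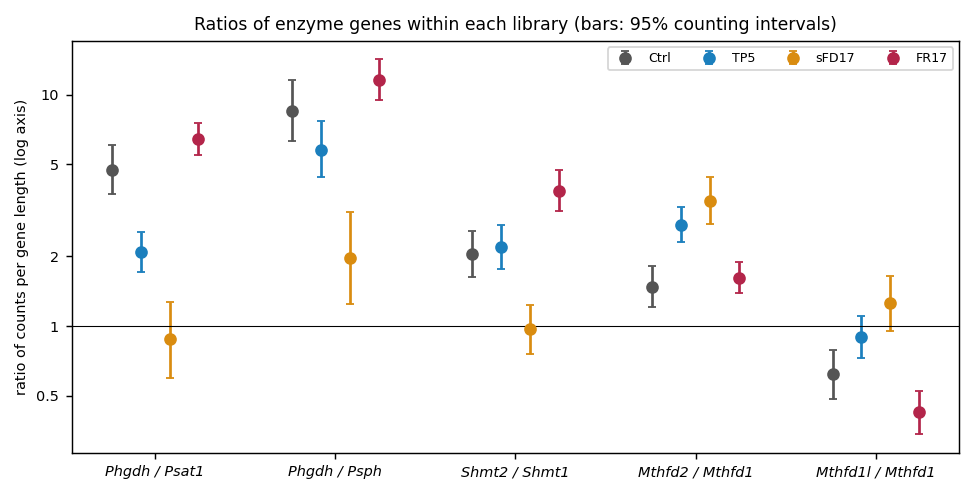
Ratios of counts per gene length between pairs of enzyme genes (vertical axis, log scale) in each of the 4 libraries, with bars for 95% counting intervals. The ratio of Phgdh to Psat1 spans 0.875 in sFD17 to 6.40 in FR17, and that of Shmt2 to Shmt1 0.969 to 3.85, while Mthfd2 relative to Mthfd1 is 3.48 in sFD17, with an interval that overlaps that of TP5.

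Of the folate genes, the mitochondrial Mthfd2 and Mthfd1l were highest in TP5, and the cytosolic Mthfd1 was highest in FR17, where counting error did not separate it from TP5. Mthfd2, whose product works as a mitochondrial dehydrogenase and cyclohydrolase (ENSMUSG00000005667, chromosome 6 from 83305691 to 83325908, minus strand), had 210 counts in Ctrl, 424 in TP5, 273 in sFD17 and 380 in FR17. It stood at 12.4 CPM in Ctrl (10.8 to 14.2), 24.2 in TP5 (21.9 to 26.6), 20.7 in sFD17 (18.3 to 23.3) and 16.6 in FR17 (14.9 to 18.3). All 3 peptide libraries were above Ctrl beyond counting error, with log2 fold changes of 0.95 in TP5 (0.72 to 1.20), 0.73 in sFD17 (0.47 to 1.00) and 0.41 in FR17 (0.17 to 0.66), and they share that 1 Ctrl library. Mthfd2 in TP5 stayed just under the 2-fold line and crossed it when counts were scaled by library size alone. Mthfd1l, the gene of the mitochondrial formate-releasing enzyme (ENSMUSG00000040675, chromosome 10 from 3973118 to 4167081, plus strand), had 112 counts in Ctrl, 176 in TP5, 125 in sFD17 and 127 in FR17. With 6.63, 10.0, 9.47 and 5.53 CPM in that order, it was high in TP5 and sFD17 and low in Ctrl and FR17, with no separation by counting error inside either pair. Mthfd1, the gene of the trifunctional cytosolic enzyme (ENSMUSG00000021048, chromosome 12 from 76255298 to 76319803, plus strand), had 181 counts in Ctrl, 197 in TP5, 100 in sFD17 and 300 in FR17. Its levels were 10.7, 11.2, 7.58 and 13.1 CPM, lowest in sFD17, and the log2 fold change there was −0.49 against Ctrl (−0.87 to −0.14), which relative to the macrophage markers turned to 0.90. Per length, Mthfd2 had 1.48 times the counts of Mthfd1 in Ctrl (1.21 to 1.81), 2.74 times in TP5 (2.31 to 3.26), 3.48 times in sFD17 (2.76 to 4.42) and 1.61 times in FR17 (1.38 to 1.88). The ratio of Mthfd1l to Mthfd1 was 0.620 in Ctrl (0.485 to 0.789), 0.895 in TP5 (0.726 to 1.10), 1.25 in sFD17 (0.955 to 1.65) and 0.424 in FR17 (0.342 to 0.523). In both ratios sFD17 had the highest value, with an interval that overlapped that of TP5.

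Set side by side per kilobase of gene length, Phgdh was the most abundant of the 8 genes in Ctrl, at 6.26 CPM per kilobase, and in FR17, at 13.2. Mthfd2 led in TP5, at 6.93 CPM per kilobase, and in sFD17, at 5.93. Phgdh was second in TP5 and seventh in sFD17, at 1.34 CPM per kilobase, where its level was not separated from that of Psat1. Shmt2 and Mthfd2 followed Phgdh in Ctrl and in FR17 without being separated from each other. The 8 genes together had 73.9 CPM in Ctrl (69.8 to 78.1), 93.4 in TP5 (89.0 to 98.1), 71.5 in sFD17 (67.0 to 76.2) and 104 in FR17 (100.1 to 108). The summed level was therefore not separated between sFD17 and Ctrl, while Phgdh made up 263 of the 1248 counts in Ctrl and 44 of the 944 in sFD17.

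A difference of at least 2-fold was used as the call, since 1 library per group allows no test of the conditions. Against Ctrl, 0 of the 8 genes were called in TP5, where 8.18% of the 16369 tested genes were. In sFD17 the call fell on 1 of the 8, Phgdh, against 11.8% of all genes, and in FR17 on 1 of the 8, again Phgdh, against 7.5% of all genes. Between the assembling peptides, FR17 against sFD17, 2 of the 8 were called, Phgdh higher and Shmt1 lower, against 22.1% of all genes. FR17 against TP5 gave 1 of the 8, Phgdh, 2.55-fold higher, against 9.92%, and sFD17 against TP5 also 1, Phgdh, 3.86-fold lower, against 12.4%. Since Phgdh chose the set and the 6 comparisons share libraries, these counts are a description. Of all tested genes, 3.2% were at least 2-fold higher and 4.99% lower in TP5 against Ctrl, 5.32% and 6.47% in sFD17, and 3.92% and 3.58% in FR17. The same shares were 11.3% and 10.8% for FR17 against sFD17, 7.04% and 2.88% for FR17 against TP5, and 6.74% and 5.64% for sFD17 against TP5. These splits depend on the scaling. By library size alone, 580 genes were called higher and 1534 lower in sFD17 against Ctrl, 1091 and 316 in FR17 against Ctrl, and 4209 and 782 in FR17 against sFD17. In the remaining comparisons that scaling called 603 higher and 769 lower in TP5 against Ctrl, 1600 and 314 in FR17 against TP5, and 709 and 1646 in sFD17 against TP5. With a 1.5-fold call, 3 of the 8 genes were called in TP5 against Ctrl beside 20.8% of all genes, 3 in sFD17 beside 29%, and 3 in FR17 beside 22.7%. That call also took 6 of the 8 in FR17 against sFD17 beside 46%, 2 in FR17 against TP5 beside 24.5%, and 3 in sFD17 against TP5 beside 31.8%. The edgeR exact test, which compares 2 libraries and not the conditions, called Mthfd2 in TP5 against Ctrl, beside 1.98% of all genes. In the remaining comparisons it called Phgdh alone, whose level chose the set, so that call is fixed by the choice and nothing is read from it. Its share of all genes was 4.79% in sFD17 and 1.83% in FR17 against Ctrl, 12.6% in FR17 against sFD17, 3.65% in FR17 against TP5 and 4.59% in sFD17 against TP5. The median log2 fold change of the 8 genes against Ctrl was 0.44 in FR17, 0.19 in TP5 and 0.05 in sFD17, beside 0.02, 0.00 and −0.03 for all tested genes. Counting error separated 4 of the 8 from Ctrl in TP5, beside 36.9% of all tested genes, 6 in sFD17, beside 44.9%, and 7 in FR17, beside 45.7%. Phgdh, Psph, Shmt2 and Mthfd1, 4 of the 8, were at once lowest in sFD17 and highest in FR17, as were 21.8% of all tested genes. Phgdh was chosen for this pattern, and without it the tally is 3 of 7. Relative to the macrophage markers Phgdh keeps it and the other three do not. Lowest in sFD17 alone were 36.9% of all tested genes and highest in FR17 33.2%. Psat1, Mthfd2 and Mthfd1l, 3 of the 8, were highest in TP5, as were 19.8% of all tested genes.

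**Figure D3:**
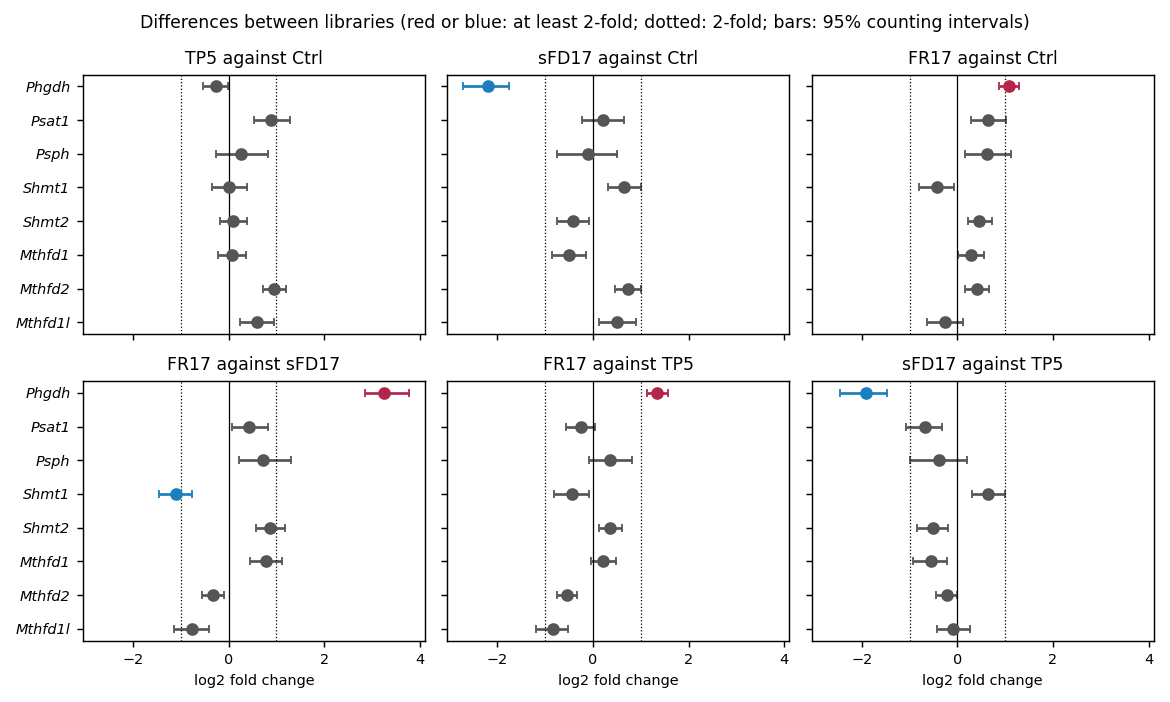
Log2 fold change of TMM-scaled CPM (horizontal axes) of the 8 genes in the 6 comparisons between libraries, with 95% counting intervals as bars and dotted lines at a 2-fold difference. Phgdh passes the line in every comparison except TP5 against Ctrl, Shmt1 passes it in FR17 against sFD17, and the remaining points lie inside it.

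The peptides were given at 1 dose and collected on 1 day, so their libraries can be set side by side. FR17 and sFD17, which differ in the order of the residues of the conjugated pentapeptide, were separated by counting error for all 8 genes, as were 60.3% of all tested genes. Of these, Phgdh, Psat1, Psph, Shmt2 and Mthfd1 were higher in FR17, and Shmt1, Mthfd2 and Mthfd1l were higher in sFD17. Relative to the macrophage markers, described after these values, Phgdh alone of the 8 stayed higher in FR17. That division moves all genes of a comparison by about the same amount. The log2 fold change of FR17 against sFD17 ranged from −1.09 for Shmt1 to 3.26 for Phgdh (2.86 to 3.78), and that of Mthfd2 turned from −0.32 to 0.14 when counts were scaled by library size alone. FR17 and free TP5, which share the thymopentin residues, were separated for 5 of the 8 genes, beside 46.7% of all tested genes. Phgdh and Shmt2 were higher in FR17, with log2 fold changes of 1.34 (1.14 to 1.57) and 0.36 (0.12 to 0.60), but relative to the macrophage markers Phgdh stood at 0.64 and Shmt2 turned to −0.35. Mthfd1l, Mthfd2 and Shmt1 were lower in FR17, with −0.85 (−1.20 to −0.52), −0.54 (−0.75 to −0.34) and −0.45 (−0.82 to −0.09). For Psat1, Psph and Mthfd1 the interval of the difference included 0, with values of −0.26 (−0.56 to 0.03), 0.35 (−0.09 to 0.81) and 0.22 (−0.05 to 0.49), and relative to those markers Psph and Mthfd1 turned to −0.35 and −0.49. Between sFD17 and TP5, 6 of the 8 genes were separated, beside 47.9% of all tested genes. Shmt1 was higher in sFD17, at 0.64 (0.31 to 1.00), and Phgdh, Psat1, Shmt2, Mthfd1 and Mthfd2 were lower. Relative to the macrophage markers Psat1, Shmt2, Mthfd1 and Mthfd2 turned higher in sFD17 than in TP5, at 0.31, 0.48, 0.43 and 0.78, as did Psph and Mthfd1l, at 0.61 and 0.92. On the TMM scale Phgdh passed 2-fold in all 3 pairs of peptides, but on that of the macrophage markers in FR17 against sFD17 alone, with −0.95 for sFD17 against TP5.

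Markers of macrophages moved with Phgdh. All 14 were lower in sFD17 than in Ctrl, 9 of them at least 2-fold, and 12 of the 14 were higher in FR17. Their summed level was 2.63-fold lower in sFD17 and 1.24-fold higher in FR17, beside 4.67-fold lower and 2.11-fold higher for Phgdh. A list of 12 alveolar macrophage genes, written after these values were seen and with counts for all 12 in every library, summed to 3666 CPM in Ctrl, 3472 in TP5, 1366 in sFD17 and 5156 in FR17. Divided by the summed counts of the 14 macrophage markers, Phgdh was 1.77-fold lower in sFD17 and 1.70-fold higher in FR17 than in Ctrl, short of 2-fold in both directions. On that scale it was 3.02-fold higher in FR17 than in sFD17, beside 9.87-fold on the TMM scale. Such a division moves the log2 fold changes of all genes in a comparison by about the same amount. Sign turns on the marker scales are thus not particular to the 8 genes, and their share over all genes was not counted. Psat1, Psph, Shmt2 and Mthfd1, which were higher in FR17 than in sFD17 on the TMM scale, turned sign on that of the macrophage markers, with log2 fold changes of −1.28, −0.96, −0.83 and −0.92. Relative to the 16 neutrophil markers, Phgdh was 6.03-fold lower in sFD17 and 2.45-fold higher in FR17. There the sign turned for Shmt1 and Mthfd1 in TP5 and Psat1 in sFD17, each against Ctrl. It also turned for Mthfd2 in FR17 against sFD17 and for Psat1 in FR17 against TP5. On the neutrophil scale Phgdh, Psat1, Psph, Shmt2 and Mthfd1 were at least 2-fold higher in FR17 than in sFD17, and 0 of the 8 were lower by as much. On the macrophage scale Phgdh alone was at least 2-fold higher there, and Psat1, Shmt1, Mthfd2 and Mthfd1l were at least 2-fold lower. Scaled on the macrophage markers, Psat1 and Mthfd2 were 3.05 and 4.38 times Ctrl in sFD17, and Psph, Shmt2 and Mthfd1, which were below Ctrl on the TMM scale, turned above it, with log2 fold changes of 1.28, 0.98 and 0.90. On the same scale Mthfd1 in FR17 against Ctrl turned to −0.03 and Phgdh in TP5 against Ctrl to 0.12. Summed platelet markers were 0.270 times Ctrl in sFD17 and 1.31 times in FR17, though 4 of the 5 tested were above Ctrl in sFD17, with a median log2 fold change of 0.12. Summed red blood cell markers were 0.593 and 1.56 times Ctrl, basophil and mast cell markers 1.64 and 2.44 times, and lung epithelial markers 2.01 and 1.19 times. The summed monocyte, dendritic cell, B and plasma cell, endothelial and fibroblast lists lay between 0.845 and 1.22 times Ctrl in sFD17 and between 0.915 and 1.31 times in FR17. The monocyte sum was 1.22 times Ctrl in sFD17 with 4 of 7 markers lower, and 0.915 times in FR17 with 6 of 7 higher. Neutrophil markers summed to 1.29 times Ctrl in sFD17, with 15 of 16 higher, and 0.863 times in FR17, with 10 of 16 lower. Their sum was highest in sFD17 and lowest in FR17, as was Shmt1. In TP5, dendritic cell markers were 1.75 times Ctrl, with 7 of 8 higher, and lung epithelial markers 1.48 times, with 6 of 8 higher. Red blood cell markers were 0.464 times Ctrl there, with 5 of 5 lower, fibroblast markers 0.564 times, with 8 of 8 lower, and endothelial and NK cell markers 0.696 and 0.698 times, each with 7 of 8 lower. The summed platelet markers were 0.426 times Ctrl in TP5 with 4 of 5 higher, and the basophil and mast cell, B and plasma cell and monocyte sums were 1.33, 1.18 and 1.03 times. The dendritic cell markers summed to 189 CPM in Ctrl, 331 in TP5, 197 in sFD17 and 247 in FR17, highest in TP5 as were Psat1, Mthfd2 and Mthfd1l. The 6 melanoma markers summed to 22 counts in Ctrl, 39 in TP5, 32 in sFD17 and 35 in FR17, with Tyr and Tyrp1 at 0 counts in all 4 libraries. The part of macrophages, NK cells, T cells and the other cell types in the values of the 8 genes was not tested.

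**Figure D4:**
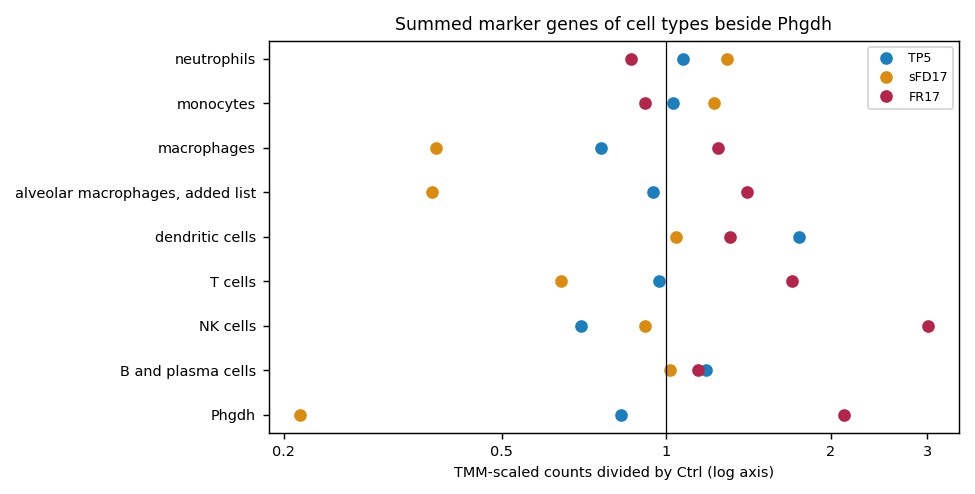
TMM-scaled counts in TP5, sFD17 and FR17 divided by those of Ctrl (horizontal axis, log scale) for the summed markers of 8 cell type lists and for Phgdh. Phgdh, both macrophage lists and the T cell list are lowest in sFD17 and above Ctrl in FR17. The NK cell markers are 3.01 times Ctrl in FR17.

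The genes whose profile over the 4 libraries was nearest to that of Phgdh were Cidec, a lipid droplet gene, Krt19, a keratin gene, F7, the gene of coagulation factor VII, Ms4a8a, and Car4, a membrane-bound carbonic anhydrase. Likeness was the root mean square difference of log2 CPM centred on each gene's mean, and it was 0.15 for Cidec, 0.16 for Krt19, 0.19 for F7 and 0.20 for Ms4a8a and for Car4. Cidec had 504 counts in Ctrl, 358 in TP5, 66 in sFD17 and 1119 in FR17. They were sought among the 9800 genes with at least 50 counts in every library, which leaves out genes as low in sFD17 as Phgdh, at 44 counts, and Psph, at 39. Measured against that set, Shmt2 differed from Phgdh by 0.88 with 715 genes nearer, and Psph by 0.95 with 1372 nearer. Psat1 differed by 1.10, with 3399 genes nearer, and Shmt1 by 1.56, with 9123 nearer. Between 715 and 9123 other genes were thus nearer to Phgdh than each partner gene, over 4 points that share their library depth.

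Atf4, a regulator known for these genes, had 359 CPM in Ctrl, 463 in TP5, 438 in sFD17 and 326 in FR17. Its log2 fold change against Ctrl was 0.37 in TP5 (0.32 to 0.42), the library where Psat1, Mthfd2 and Mthfd1l were highest. It was 0.29 in sFD17 (0.24 to 0.34) and −0.14 in FR17 (−0.19 to −0.09). Myc had 306 counts in Ctrl, 277 in TP5, 171 in sFD17 and 513 in FR17. Its level ran in the same order as that of Phgdh over a smaller range, with 18.1 CPM in Ctrl and 22.3 in FR17, but counting error did not separate TP5 from Ctrl, at −0.20 (−0.44 to 0.04). Nfe2l2, the gene of NRF2, had 570 CPM in Ctrl, 511 in TP5, 784 in sFD17 and 351 in FR17. This is the reverse order at its extremes. The letters of the NRF2 element stand in the Phgdh promoter shown before, and in 10.2% of all windows. An action of NRF2 on Phgdh was not tested. The ATF4 and amino acid response list had 22 tested genes, of which 0 were at least 2-fold higher and 1 lower in TP5, 0 and 2 in sFD17, and 0 and 1 in FR17. Those were Gpt2, an alanine transaminase gene that went from 205 counts in Ctrl to 102 in TP5 and 49 in sFD17, Stc2 with 6 counts in Ctrl and 1 in sFD17, and in FR17 the cystine transporter gene Slc7a11. Slc7a11 had 20835 counts in Ctrl and 12218 in FR17, a log2 fold change of −1.21 (−1.24 to −1.18), with 30722 counts in sFD17. Asns, the asparagine synthetase gene and a classical ATF4 target, had 109 counts in Ctrl, 118 in TP5, 106 in sFD17 and 131 in FR17. Scaled, these were 6.45, 6.73, 8.03 and 5.71 CPM. Over the whole list the median was 0.23 in sFD17, −0.07 in TP5 and −0.23 in FR17.

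Around the 8 genes, the other folate enzymes and carriers had 15 tested genes. Of these, 0 were at least 2-fold higher and 2 lower in TP5, 0 higher and 3 lower in sFD17, and 0 in either direction in FR17. The genes were Folr2, a folate receptor gene known from tissue macrophages, and Mthfd2l, a second mitochondrial dehydrogenase gene, in both libraries, and the folate transporter gene Slc46a1 with 30 counts in Ctrl and 1 in sFD17. Folr2 had 569 counts in Ctrl, 190 in TP5, 76 in sFD17 and 972 in FR17, with a log2 fold change of −2.53 in sFD17 (−2.91 to −2.20). Mthfd2l had 47 counts in Ctrl, 20 in TP5, 15 in sFD17 and 49 in FR17, or 2.78, 1.14, 1.14 and 2.13 CPM. It was below Ctrl in TP5 and sFD17, where its paralog Mthfd2 was higher. Tyms, the thymidylate synthase gene, had 60 counts in Ctrl, 103 in TP5, 54 in sFD17 and 147 in FR17. Scaled, these were 3.55, 5.87, 4.09 and 6.40 CPM. Glycine cleavage had 3 tested genes with 0 called against Ctrl in any library. Its Gcsh had 161 counts in Ctrl, 116 in TP5, 72 in sFD17 and 192 in FR17, or 9.53, 6.61, 5.46 and 8.36 CPM.

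Purine synthesis, which takes up the formyl groups that MTHFD1 makes, had 12 tested genes with 0 called. Its median log2 fold change was 0.12 in TP5, with 11 of the 12 above 0, −0.27 in sFD17, with 3 above 0, and 0.32 in FR17, with 11 above 0. Of its genes, Adsl had 213 counts in Ctrl and 390 in FR17, Prps2 had 246 in Ctrl and 127 in sFD17, and Ppat had 79 in Ctrl and 135 in TP5. The 18 aminoacyl-tRNA synthetase genes had 0 called and medians of 0.15, −0.25 and 0.27 in the same order. Among them, Lars stood at 0.55 in FR17 (0.38 to 0.73), Iars at 0.41 in TP5 (0.18 to 0.65) and Wars, which interferon is known to induce, at 0.73 in sFD17 (0.55 to 0.91). The methionine cycle and transsulfuration had 7 tested genes with 0 called and medians of 0.10, 0.20 and −0.14 in that order. Among its genes with at least 50 counts, Amd1 differed most in TP5, at 0.62, and in sFD17, at 0.55, and Ahcy in FR17, at 0.36. Of 14 genes of serine transport and use, 1 was called, Slc6a9, a glycine transporter gene with 7 counts in Ctrl and 13 in sFD17. Slc1a5, a neutral amino acid transporter gene, stood at 0.49 in TP5, Ptdss2 at −0.54 in sFD17 and Serinc5 at −0.84 in FR17.

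Glycolysis around 3-phosphoglycerate, the substrate of PHGDH, had 7 tested genes and medians of 0.03 in TP5, 0.32 in sFD17 and −0.12 in FR17. Gapdh was the 1 gene called, with 485 counts in Ctrl, 1214 in TP5, 484 in sFD17 and 445 in FR17, or 28.7, 69.2, 36.7 and 19.4 CPM. Its reads can be divided among its many pseudogenes. Pkm stood at 0.47 in sFD17 (0.44 to 0.50). The 18 proliferation genes were all above 0 in TP5, with a median of 0.58, and had medians of 0.26 in sFD17 and 0.45 in FR17. Cdc20 was the 1 of them called against Ctrl, at 1.12 in TP5 (0.80 to 1.48), and it had 0.94 in FR17, while Rrm2 had 0.67 in sFD17. Mthfd2, Psat1 and Mthfd1l had 0.95, 0.89 and 0.59 in TP5 beside that median, and the part of dividing cells in their values was not tested.

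**Figure D5:**
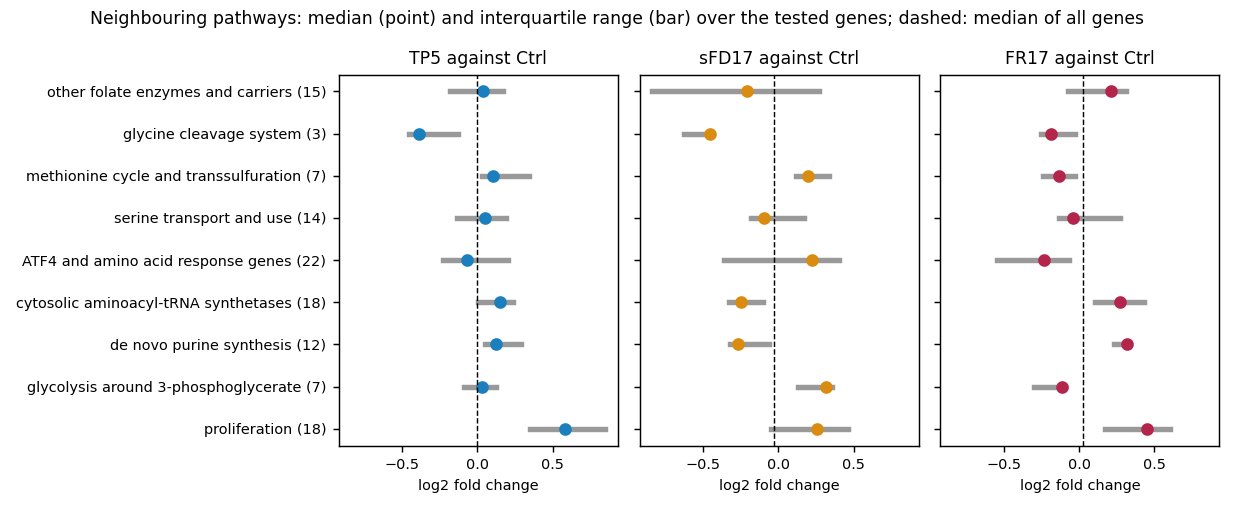
Median (points) and interquartile range (bars) of the log2 fold change against Ctrl (horizontal axes) over the tested genes of 9 neighbouring pathways, whose number stands in brackets, with a dashed line at the median of all genes. Purine synthesis and aminoacyl-tRNA synthetase genes lie below the line in sFD17 and above it in FR17, and proliferation genes lie highest in TP5, at 0.58.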

How the data were processed

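RNA of lung CD11b+Ly6g+ MDSCs was sequenced in 4 libraries, 1 each for Ctrl, TP5, sFD17 and FR17, from directional libraries of pooled cells. The authors deposited raw counts of reads per gene without normalization, with the length of each gene. The submitters' processing notes name HISAT2 2.0.5, StringTie 1.3.3b, featureCounts 1.5.0-p3, edgeR 3.18.1 and the build GRCm38.p6, and whether strand was used in counting is not given in the sources used here. The coordinates and lengths of all 8 genes equal those of GENCODE M21. Of the sample columns, 0 were left unmapped.

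Genes reaching 10 counts in 1 library or more, 16369 in all, were scaled by TMM (R 4.3.3, edgeR 4.0.16), and log2 fold changes used a prior count of 2. Intervals at 95% were exact Poisson intervals for levels and exact binomial (Clopper-Pearson) intervals for ratios of counts. A count of 0 allows up to 3 counts, or 0.131 to 0.227 CPM. With 1 library per group the quasi-likelihood test could not be fitted, so a call was a 2-fold difference, and p-values are not given. Alternatives were DESeq2 1.42.0 size factors, library size alone, no filter, 10 counts in every library, a prior count of 0.5, a 1.5-fold call, a 2-fold call with its interval beyond 1.5-fold, and edgeR's exact test at an unadjusted threshold of 0.05. That test used the trended dispersion of the 4 libraries taken as 1 group. Their common biological coefficient of variation was 0.268. Scaling on macrophage or neutrophil markers was added after seeing the data. For the 100 symbols on several rows, the highest row was taken. Fold changes and intervals were tested on simulated data with counting noise alone, which does not cover variation between mice.

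The 13 pathway lists, the 14 marker lists and the members were chosen with earlier results of these data known. Named were the 8 genes, per list and comparison with Ctrl the most changed gene that reached 50 counts in 1 of its 2 libraries, Atf4, Myc, Nfe2l2, Itgam, Ly6g and the 5 genes nearest to Phgdh; Phgdh-ps1, Asns, Mthfd2l, Stc2, Slc46a1, Slc6a9, Cct6a, Smcr8, Tyr and Tyrp1 were named after their values were seen. Python 3.11.15, pandas 2.3.3, scipy 1.17.1 and matplotlib 3.10.9 were used.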

Additional observations from a re-analysis of the deposited data

How the results depend on the processing

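No paired analysis was possible because each group is 1 library, and for the same reason no replicate could be left out. Of 240 values of the members' log2 fold changes under 5 alternative scalings, filters and prior counts, 232 stayed inside the counting interval of the reported value and 8, all by library size alone, left it. Under these 5, a sign changed in 2 of 48 differences, Psat1 in sFD17 against Ctrl (lowest value −0.003) and Mthfd2 in FR17 against sFD17 (highest value 0.14), both under 2-fold. Depth limits Psph most, with 39 to 114 counts.

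Values are given in the order TP5, sFD17 and FR17 against Ctrl, then FR17 against sFD17, FR17 against TP5 and sFD17 against TP5. A 1.5-fold call gave 3, 3, 3, 6, 2 and 3 of the 8 genes, and 3409, 4751, 3714, 7534, 4006 and 5200 of all genes, in place of 1339, 1930, 1227, 3613, 1624 and 2026 at 2-fold. By library size alone, 1 of the 8 genes was called in TP5 against Ctrl, beside 1372 of all genes, and 4 in FR17 against sFD17, all 4 higher, beside 4209 of all genes higher and 782 lower. Without a filter on low counts, FR17 against sFD17 called 1 of the 8, and all genes called numbered 3097, 4212, 2891, 5654, 3175 and 3762. With 10 counts in every library they numbered 503, 914, 448, 2316, 714 and 980, fewer genes being tested. Requiring the counting interval beyond 1.5-fold left 462, 914, 464, 2383, 804 and 927. By the edgeR exact test on 2 libraries, which compares those libraries and not the conditions, 1 of the 8 genes was called in each of the 6 comparisons, Mthfd2 in TP5 against Ctrl and in the others Phgdh, where the choice of the set fixes the call and nothing is read from it, and 324, 784, 299, 2067, 598 and 752 of all genes.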
